A study of Homo sapiens with 3 samples.

Results

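The genes examined here were 34 transcription factors and cofactors of blood formation and leukaemia, chosen by name. Their peaks were those that the deposited annotation of MECOM binding assigned to one of the 34 gene symbols, by nearest gene start. The annotation assigned 6 of its 3462 peaks to them, a single peak each at ETV6, MYB, IKZF2, BCL11A, HLF and SOX4. The other 28 genes were assigned none. The data come from chromatin immunoprecipitation with sequencing (ChIP-seq) in HEK293T, a line of human embryonic kidney cells and not of blood cells. The cells carried the empty pMYS-IG vector, wild-type MECOM or MECOM with the R750W substitution, with an AM tag, the peptide that the precipitating antibody recognises. Each of these 3 groups had 1 library. The single peak list used here bears the name of the wild-type group (WT), and lists for the other groups were not used here, so no group was compared with another and no value has a replicate. MECOM was introduced from outside, and whether HEK293T cells transcribe the 34 genes cannot be read from a peak list.

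MECOM, also called EVI1, is a zinc finger protein of blood stem cells that binds DNA through separate finger domains and recruits corepressors, and its overexpression occurs in a subset of acute myeloid leukaemias. The 34 genes cover the factors that establish blood stem cells (RUNX1 with its partner CBFB, TAL1, LYL1 and LMO2, and the ETS proteins ERG and FLI1). They also cover factors that direct myeloid, erythroid or lymphoid fate (SPI1, CEBPA, IRF8, GATA1 with its cofactor ZFPM1, KLF1, NFE2 and IKZF1). Others act in self-renewal or are altered in leukaemia, such as MYB, HLF, MYCN, HMGA2, MLLT3 and ZBTB16.

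A peak lay within 1000 bp of the annotated start of MYB, IKZF2 and ETV6, and the bases just before those starts are shown. Apart from the last 10 bases at MYB, these bases lie outside the peaks. The 250 bases before the start given by RefSeq (GRCh38.p14) run, on the strand of the gene, from chr6:135181058-135181307 (MYB, plus strand), chr2:213152457-213152706 (IKZF2, minus strand) and chr12:11649424-11649673 (ETV6, plus strand). Capitals mark matches on either strand to GGGCGG, the core letters of SP and KLF sites (MYB and ETV6), or to TGTGGT, the core letters of RUNX sites (IKZF2).
MYB: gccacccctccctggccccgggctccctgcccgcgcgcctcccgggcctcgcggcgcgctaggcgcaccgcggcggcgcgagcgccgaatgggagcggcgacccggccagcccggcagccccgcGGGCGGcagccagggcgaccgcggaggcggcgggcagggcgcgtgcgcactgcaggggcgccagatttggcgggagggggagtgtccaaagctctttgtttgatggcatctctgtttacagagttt
IKZF2: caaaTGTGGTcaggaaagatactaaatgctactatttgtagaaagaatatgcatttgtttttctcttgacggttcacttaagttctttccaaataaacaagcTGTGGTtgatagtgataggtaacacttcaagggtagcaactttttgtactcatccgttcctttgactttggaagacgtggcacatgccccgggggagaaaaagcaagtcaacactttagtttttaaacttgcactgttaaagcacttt
ETV6: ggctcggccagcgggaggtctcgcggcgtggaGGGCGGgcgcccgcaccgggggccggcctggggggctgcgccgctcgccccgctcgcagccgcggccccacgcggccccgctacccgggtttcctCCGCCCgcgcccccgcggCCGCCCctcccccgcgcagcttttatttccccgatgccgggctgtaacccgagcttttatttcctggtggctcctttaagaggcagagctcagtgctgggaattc
The last 10 bases of the MYB stretch lay inside its peak. The IKZF2 peak began 144 bp past the RefSeq start, on the other side from the bases shown, and the ETV6 peak ended 264 bp before the stretch shown. No match in capitals lay inside a peak. The MYB and ETV6 stretches were 75.6% and 74.4% G or C, and the IKZF2 stretch 38%.

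ETV6 had the highest peak of the 6. It encodes an ETS-family repressor needed for blood stem cell maintenance and broken by translocations in leukaemia. Its peak, on chromosome 12 from 11648882 to 11649159 (hg38), held 30 fragments at its highest point over an expected background of 2.61. The deposited fold enrichment, a ratio of fragments to local background, was 8.59 with a 95% interval of 5.88 to 12.1. Each interval on a fold is the exact Poisson interval of the fragment count divided by an unchanged background, and allows for counting error alone. In the list of 3462 peaks it ranked 72nd by fold, and 94.6% of peaks had as many fragments or fewer. The whole peak lay upstream of the gene, 695 to 972 bp before the start used in the deposited annotation and 515 to 792 bp before the RefSeq start. ETV6 spans 246 kb, and no peak lay inside it.

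MYB, a factor required for definitive blood formation and an oncogene in leukaemia, was the only one of the 34 genes with a peak that the annotation placed across the gene start. The peak lay on chromosome 6 from 135181298 to 135181591, from 17 bp before to 276 bp after the annotated start. It held 26 fragments, more than the list's median of 18, over a background of 5.34, and 89.8% of peaks had a background at or below that. Its fold enrichment was 4.26 (2.84 to 6.17), below the list's median of 4.82. With the list's median background of 2.92 in place of its own, the same fragments gave a fold of 6.89. By its deposited −log10 q-value of 6.42 the MYB peak stood above the list's median of 5.33.

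IKZF2 encodes Helios, a zinc finger protein of the Ikaros family found in lymphoid and stem cells. Its peak lay just inside the gene on chromosome 2 from 213151940 to 213152312, between 115 and 487 bp past the annotated start. It held 15 fragments over a background of 2.96, a fold of 4.04 (2.37 to 6.49). Both values lay at or just under the lower quartiles of the list, which were 15 fragments and 4.06 in fold.

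BCL11A encodes a zinc finger repressor of fetal globin genes that is also needed for B cells. Its peak lay on chromosome 2 from 60554904 to 60555269, upstream by 1337 to 1702 bp from the annotated start and by 980 to 1345 bp from the first of its 5 RefSeq starts. The peak held 19 fragments over a background of 4.15, a fold of 3.88 (2.42 to 5.96). No peak lay within the 103 kb of the gene itself.

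The peaks of SOX4 and HLF lay away from their genes and had the lowest folds of the 6. SOX4, an HMG-box factor of early lymphoid cells and many tumours, was assigned a peak on chromosome 6 from 21588078 to 21588431, whose nearer edge was 4338 bp before the annotated start. It held 15 fragments over a background of 3.56, a fold of 3.51 (2.06 to 5.65). HLF encodes a bZIP factor that marks blood stem cells and is fused to TCF3 in some acute leukaemias. Its peak, on chromosome 17 from 55238253 to 55238656, ended 26356 bp before the annotated start and held 16 fragments over a background of 3.56, a fold of 3.73 (2.23 to 5.92). With deposited −log10 q-values of 2.58 and 3.12 these peaks stood in the lower part of the list, whose lowest value was 2.0. Of all peaks, 6.33% had a q-value as weak as that of SOX4 or weaker, and 15.3% one as weak as that of HLF or weaker.

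**Figure D1:**
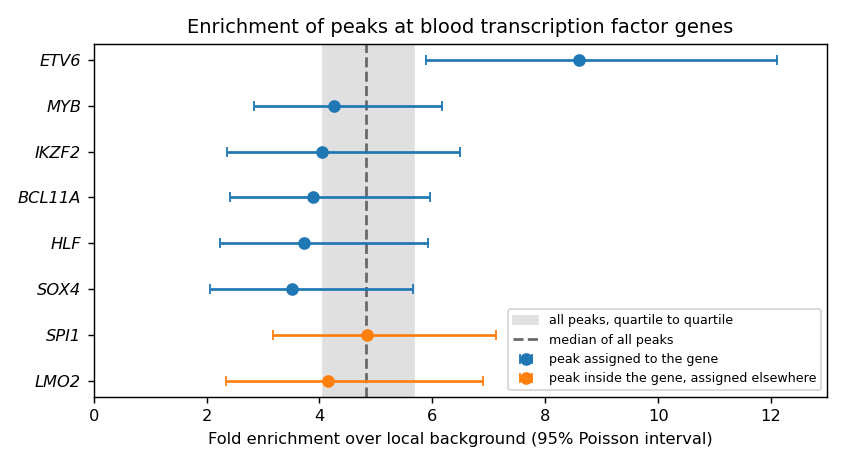
Fold enrichment over local background (horizontal axis) of the 6 peaks assigned to listed genes (blue) and of 2 peaks inside listed genes but assigned to another gene (orange), with 95% Poisson intervals; the grey band and dashed line give the quartiles and median of all 3462 peaks. The ETV6 interval lies wholly above the median of 4.82, and the other intervals include it.

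Apart from that of ETV6, the assigned peaks had folds below the list's median. Folds ran from 3.51 to 8.59 with a median of 3.96, against 4.82 over all peaks, and 5 of the 6 lay below that value. The interval of ETV6 lay wholly above the list's median, as did those of 5.46% of all peaks, while the intervals of the other 5 included it. Intervals of neighbours in the order of fold overlapped, and that of ETV6 (from 5.88) also overlapped those of MYB, IKZF2, BCL11A and HLF. Of the 6, the SOX4 interval alone, ending at 5.65, lay wholly below that of ETV6. In each case the width was below the list's median of 414 bp, with a median of 360 bp. The expected background was above the list's median of 2.92 at 5 of the 6, ETV6 being the exception, but at IKZF2 only slightly (2.96). The part of the background in the low folds was not tested. With the list's median background in place of each peak's own, the 6 peaks had a median fold of 4.72 and the whole list 4.85.

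**Figure D2:**
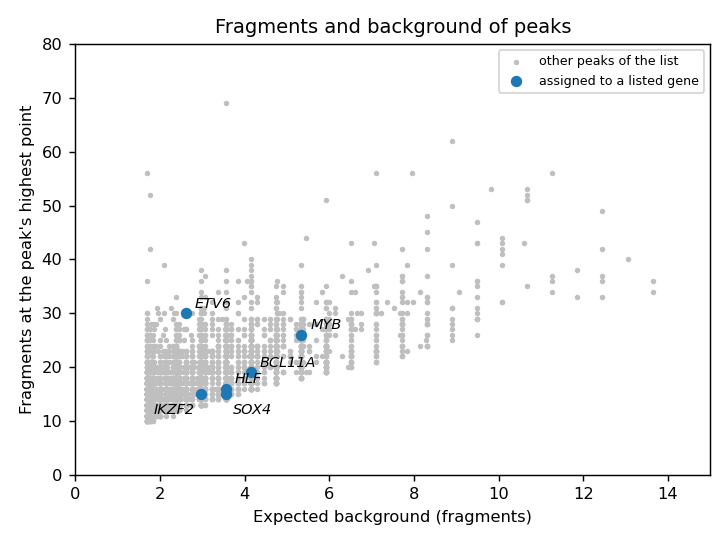
Fragments at each peak's highest point (vertical axis) against the expected background in fragments (horizontal axis); grey points are other peaks of the list, and blue points the 6 assigned to listed genes. MYB, with 26 fragments over 5.34, lies to the right of ETV6, with 30 over 2.61, and the other 4 have 15 to 19 fragments; 3431 of the 3459 peaks under 100-fold fall within the axes.

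By position, 4 of the 6 peaks lay upstream of the gene, 1 inside it (IKZF2) and 1 across its start (MYB). Within the whole list the annotation placed 27.8% of peaks upstream, 40.4% inside and 19.4% across a start. By the deposited distance, 3 of 6 lay within 1000 bp of the start (50%, exact binomial interval 11.8 to 88.2), against 55.7% of the 3419 peaks with an annotated gene. The exact binomial interval of the upstream share (4 of 6, 66.7%) ran from 22.3 to 95.7 and so included the list's value, and 6 peaks bound these shares only loosely.

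**Figure D3:**
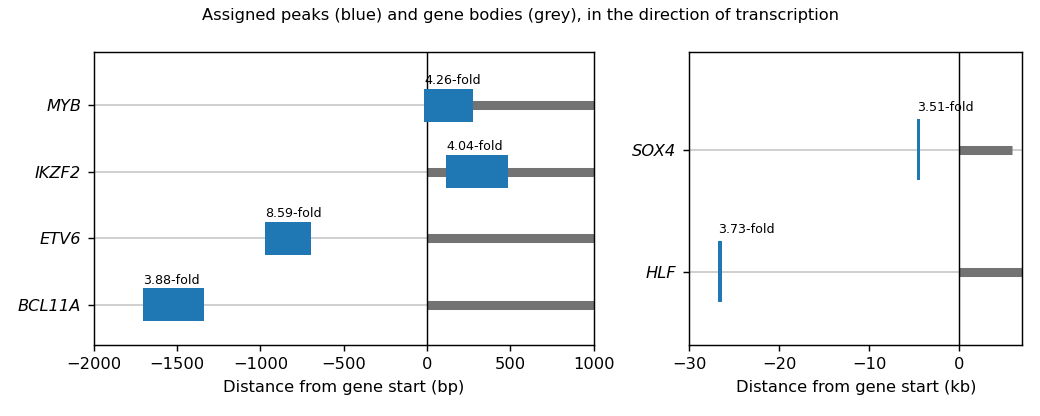
Place of the 6 assigned peaks (blue) relative to the annotated gene start at 0, in bp for MYB, IKZF2, ETV6 and BCL11A and in kb for SOX4 and HLF, with the gene body in grey and transcription running to the right; labels give the fold. The MYB peak covers the start, that of IKZF2 lies just inside, and the others lie upstream, HLF farthest at over 26 kb.

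Of the 34 genes, 6 were assigned a peak (17.6%, exact binomial interval 6.76 to 34.5), against 9.94% of 20033 protein-coding genes. The interval includes the background, so the share is not a result about these genes. Genes over 100 kb were assigned a peak in 16.4% of cases and genes under 10 kb in 5.66%. Among the listed genes the counts were 3 of 11 over 100 kb (ETV6, IKZF2 and BCL11A), 2 of 12 between (MYB and HLF, background 10.2%) and 1 of 11 under 10 kb (SOX4). The listed genes were longer, with a median of 37.3 kb against 24.1 kb. The count also moved with the strength asked of a peak. With peaks of a −log10 q of at least 5, 2 genes were left (ETV6 and MYB), or 5.88% against 5.52% of protein-coding genes. With peaks at or above the median fold only ETV6 was left, or 2.94% against 5.04%.

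A further 2 of the 34 genes held a peak that the annotation gave to another gene. SPI1 encodes PU.1, the ETS factor that drives myeloid and B cell fate. A peak on chromosome 11 from 47355097 to 47355441 lay inside it, 237 bp from the end with the lower coordinate, and was assigned to its neighbour MYBPC3, a cardiac myosin-binding protein gene, at 2395 bp upstream of that gene's start. It held 24 fragments over a background of 4.15, a fold of 4.85 (3.18 to 7.13), and its −log10 q of 7.12 was the second highest after ETV6. LMO2 encodes the LIM-domain adaptor that joins TAL1 and GATA factors, and is activated by translocation in T cell leukaemia. Its peak, on chromosome 11 from 33870284 to 33870558, lay 11708 and 21518 bp from the ends of the gene and was assigned to ENSG00000184566, which has no symbol in the table. It held 13 fragments over 2.37, a fold of 4.15 (2.35 to 6.89).

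By gene span rather than nearest start, 4 of the 34 genes held a peak (SPI1, LMO2, IKZF2 and MYB), 11.8% against 11.4% of protein-coding genes. With 1000 bp added on both sides ETV6 and BCL11A joined them, making 6 (17.6%) against 13.7%. Counting either rule, 8 of the 34 genes had a peak assigned or inside. The matching share of protein-coding genes was not computed, so this count is not a result about the listed genes.

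The core-binding factor genes had none. RUNX1, the founding regulator of blood stem cells, spans 262 kb and was 585 kb from its nearest peak. RUNX2, the bone regulator of the same family, was 265 kb away, RUNX3, a lymphoid and neuronal factor, 806 kb, and CBFB, the shared partner subunit, 58.6 kb. The stem cell ETS genes ERG (295 kb long) and FLI1 (128 kb long) also held none, with nearest peaks at 1018 and 77.4 kb.

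Among factors of the TAL1 and GATA complexes, TAL1 lay 192 kb from its nearest peak, LYL1, a close relative of TAL1, 155 kb, GATA1 117 kb and its cofactor ZFPM1 79.2 kb. The erythroid factors KLF1 and NFE2 lay 56.5 and 57.7 kb away. The repressors GFI1 and GFI1B, which recruit the LSD1 demethylase, lay 174 and 1990 kb away. The myeloid factors CEBPA and IRF8 lay 218 and 283 kb from a peak, and the lymphoid factor IKZF1 44.7 kb.

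Of the remaining genes, NR4A1, an orphan nuclear receptor that restrains myeloid leukaemia, was closest, at 12.1 kb from a peak inside its neighbour GRASP (5.19-fold, 2.94 to 8.62). Its relative NR4A2 lay 67.6 kb from a peak and the homeobox gene HHEX 97.2 kb. ZBTB16, which encodes the PLZF protein, HMGA2, a chromatin architectural factor, and KLF2, a factor of lymphocyte quiescence, lay 183, 269 and 426 kb away. KLF4 and MLLT3, a subunit of the elongation machinery fused to KMT2A in leukaemia, lay 622 and 932 kb away. MYCN, the MYC relative amplified in neuroblastoma, lay farthest, at 4105 kb. No peak lay within 1 Mb of ERG, GFI1B or MYCN.

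**Figure D4:**
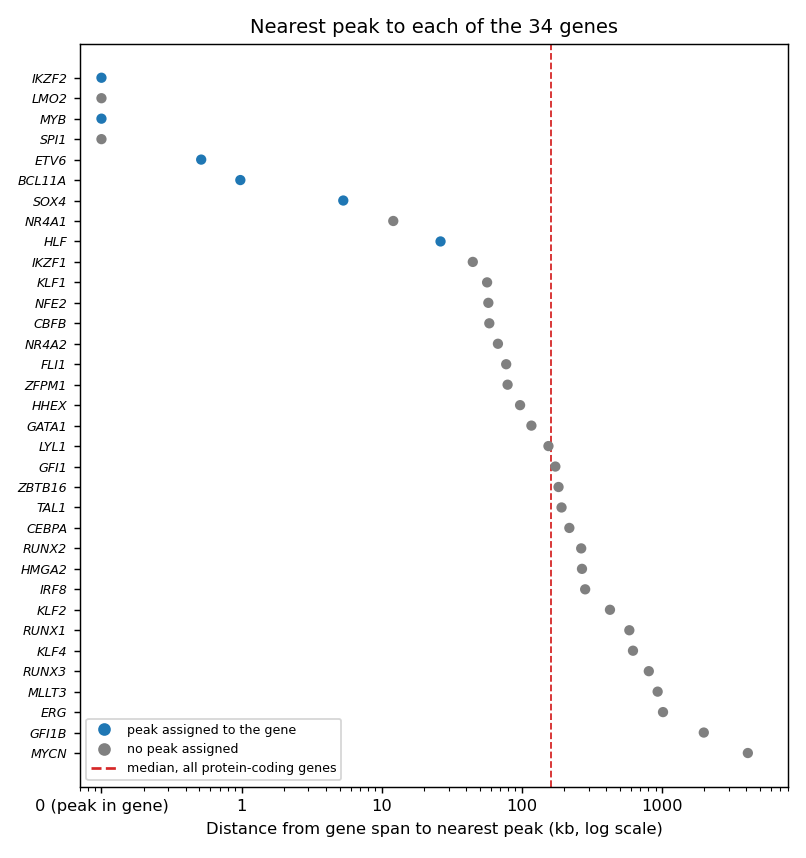
Distance in kb, on a log scale, from each of the 34 gene spans to the nearest peak, with genes that hold a peak placed at the left; blue genes were assigned a peak, and the dashed line marks the median of 162 kb over all protein-coding genes. LMO2 and SPI1 hold a peak without being assigned one, and MYCN, at 4105 kb, is farthest.

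Across the 34 genes the median distance to a peak was 107 kb, against 162 kb over protein-coding genes, and 17 had a peak within 100 kb (50%, exact binomial interval 32.4 to 67.6), against 39.9%. That interval too includes the background. Within 1 Mb of each gene lay 0 to 10 peaks with a median of 2, against a median of 3 over protein-coding genes. The gene with 10 was NFE2, and the highest of those peaks was assigned to SP1. The highest peak near any of the genes, at 21.1-fold, lay 758 kb from SOX4, on chromosome 6 from 20835230 to 20836011.

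The relatives and partners of these factors were taken as 17 lists of whole families and named partners. Of their 176 genes outside the 34, 28 were assigned a peak (15.9%), with a median fold of 5.12 for the highest peak of each gene. These shares were set against the background of 9.94% without a test, and gene length was not matched. Empty lists were the RUNX and CBFB genes (0 of 4), the NR4A receptors (0 of 3), the CEBP factors (0 of 6) and the interferon regulatory factors (0 of 9).

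The ETS family counted 5 of 28, ETV6 among them. ETV3, an ETS repressor, had a peak across its start (6.41-fold, 4.39 to 9.06), as did ELF1 (4.29-fold, 2.56 to 6.81), while that assigned to ELF4 (6.38-fold, 4.14 to 9.43) lay 10148 bp upstream. The KLF and SP family counted 5 of 26, none of them KLF1, KLF2 or KLF4. SP1, a general activator of GC-rich promoters, had a peak as high as that of ETV6, at 8.61-fold (5.64 to 12.6), 8723 bp upstream of its start. KLF12 reached 7.32-fold (5.19 to 10.1) and KLF5 6.11-fold (3.93 to 9.11), both inside the gene.

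Partners of TAL1 and LMO2 counted 5 of 19, with TAL1, LYL1 and LMO2 not among them. LDB1, which links LMO2 complexes over a distance, had a peak 2670 bp inside the gene (5.75-fold, 3.53 to 8.91). SSBP2, which stabilises LDB1, reached 7.05-fold (4.33 to 10.9). The peak of ID2, an inhibitor of bHLH factors, began 106 bp past its start (3.86-fold, 2.61 to 5.51), and that given to TCF3, a bHLH partner of TAL1, lay 25649 bp upstream (4.17-fold, 2.56 to 6.46). The MYB and MYC families counted 4 of 13. Besides MYB these were MYC (4.98-fold, 2.93 to 8.02) and the MAX partners MXD4 (5.64-fold, 3.46 to 8.73) and MXI1 (2.96-fold, 1.92 to 4.38).

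**Figure D5:**
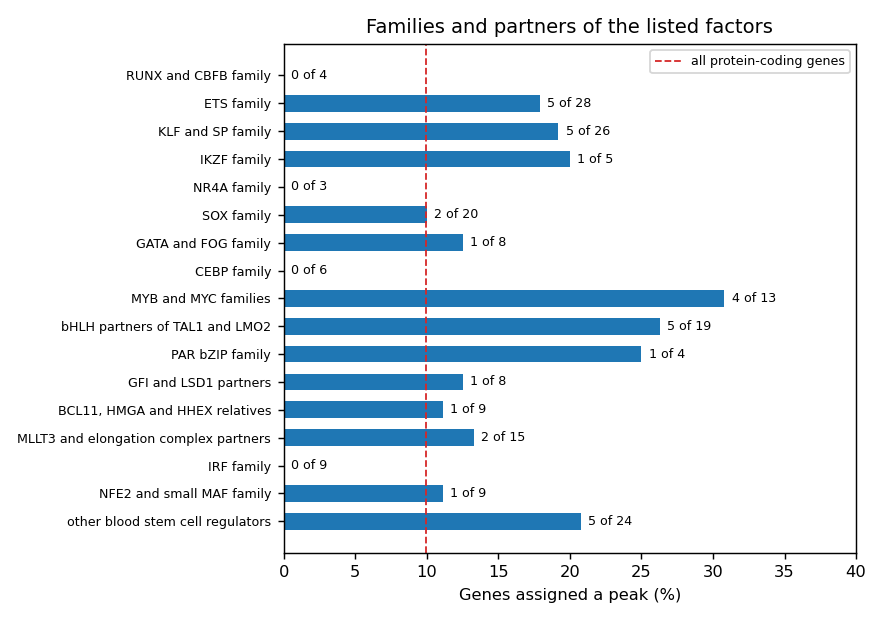
Share of genes assigned a peak (horizontal axis, percent) in each of 17 lists of relatives and partners, with counts beside the bars and a dashed line at 9.94%, the share of all protein-coding genes. The MYB and MYC families (4 of 13) and the partners of TAL1 and LMO2 (5 of 19) have the highest shares, and 4 lists have none.

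Other stem cell regulators counted 5 of 24, among them TCF7L2 (4.75-fold), PBX3 (4.03-fold) and LEF1 (4.00-fold). Among MLLT3 and its elongation partners 2 of 15 had a peak, PSIP1 (5.64-fold) and MLLT10 (5.34-fold). Of the GFI and LSD1 partners 1 of 8 had one (RCOR1, 7.41-fold), of the GATA and FOG genes 1 of 8 (GATA2, 6.4-fold) and of the NFE2 and MAF genes 1 of 9 (BACH2, 5.34-fold). The SOX family counted 2 of 20, SOX4 and SOX21 (3.77-fold), the Ikaros family 1 of 5, the HLF family 1 of 4 and the relatives of BCL11A, HMGA2 and HHEX 1 of 9, each of these last 3 through the listed gene alone.

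RefSeq gave promoter sequence, from 250 bases before to 50 after a start, for 45 starts of 26 of the 34 genes. Letters were searched on both strands in these windows and in those of 22198 starts of protein-coding genes. Windows of the same gene can overlap and share a match, as at ERG, so the windows are not independent. The core read by the first zinc finger domain of MECOM, ACAAGATA, was in none of the 45 windows and in 0.293% of all, and that of its second domain, GAAGATGAG, in none and in 0.275%. At such low shares 45 windows would most often hold none, so the absence of both cores is not a result about the listed genes. AGATAA, the core of GATA sites, which overlaps the first of these when an A follows it, was in 6 windows (13.3%, against 7.91%), at ERG, IKZF1, LYL1, NR4A1 and TAL1. CCGGAA, the ETS core, was in 6 windows (13.3%, against 21.2%), and TGTGGT in 8 (17.8%, against 11.3%), among them that of the IKZF2 start nearest its peak. GGGCGG was in 29 (64.4%, against 56.3%), CAGNTG, the E-box, in 18 (40%, against 47.5%) and CCAAT, the NFY core, in 14 (31.1%, against 34.7%). TGANTCA, the AP-1 site, was in 2 (4.44%, against 6.15%), TGACGTCA, the CRE, in 1 (2.22%, against 2.26%) and the NRF1 site, GCGCA joined to TGCGC, in none (against 1.5%). The sequences under the 6 peaks themselves were not searched, apart from the part of the MYB peak in its window.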

How the data were processed

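Tagged MECOM was precipitated from formaldehyde-fixed HEK293T cells after cutting with micrococcal nuclease and sonication, per the labels' protocols. The submitters' processing notes name hg38, Bowtie2 2.4.2, MACS2 2.1.1.20160309.6 and ChIPseeker 1.18.0, with no role for any of them. The deposited table has no header, and its columns were identified from their values: fold enrichment (a ratio), −log10 p, −log10 q and a score, the whole part of 10 times −log10 q, each the authors' own value per peak. Distances in the deposited table were measured from the peak's lower coordinate on both strands, so edge distances were recomputed. Of 3465 lines, 3 repeat a peak. No column of values (0) went unmatched.

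Fragments and background were solved from fold = (fragments + 1)/(background + 1) and the Poisson tail, within 0.001 of −log10 p or a share of 1e-05. This gave a single solution at all 3462 peaks, and in 100% of 300 simulated peaks. Sequencing depth of the libraries was not given in the labels or the table. Gene spans and promoters came from RefSeq GRCh38.p14, to which 2236 of 2286 symbols matched. Members, lists and motifs were chosen with earlier results of these data known. All 34 genes were named, with up to 4 genes a family list by highest fold, of which 1 is not reported here. No test was run, since 1 list has no replicate. Alternatives were a stricter q, higher peaks, distance limits, gene spans, removal of the peaks at the lowest background, a common background and longer motifs. Python 3.11.15, pandas 2.3.3, numpy 2.4.6 and scipy 1.17.1 were used.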

Additional observations from a re-analysis of the deposited data

How the results depend on the processing

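The count of 6 listed genes assigned a peak (17.6%, background 9.94%) fell to 2 at a −log10 q of at least 5, to 1 among peaks at or above the median fold and to 3 within 1000 bp of the start (8.82%, background 7.05%), settings that keep fewer peaks. It was 5 within 10000 bp of the start (14.7%, background 9.15%), 6 without peaks at the lowest background (background 8.98%) and 6 by widened gene span (background 13.7%), the last with other genes. At the stricter q the median fold of the listed genes' peaks was 6.42 in place of 3.96. The whole list's median was then 5.58 in place of 4.82, so the listed genes' median lay above it and not below. The share within 1000 bp of a start was 100% in place of 50%, and like the 6.42 it rests on the 2 peaks left. The count with a peak inside the gene was 2 in place of 4, and the matching share of protein-coding genes was not computed. The median fold of the listed genes' peaks was 3.96 to 4.72 in the other settings. With longer motifs, CCGGAAGT was in 0 windows in place of 6 (5.33% of all windows), TGTGGTTT in 2 in place of 8 (4.44%, against 1.32%) and GGGGCGGGG in 14 in place of 29 (31.1%, against 20.6%). The 2 with TGTGGTTT were at GFI1 and RUNX2, so the IKZF2 matches were lost. Of the 6 single folds, that of MYB left its interval over the median background (6.89). No paired analysis was possible because only the wild-type list was used here. About 18 fragments per peak limit any ranking, and error in the background is not covered.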

Other observations

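Promoters rich in CpG lay near peaks more often in this list. Of 13793 protein-coding starts with a CpG ratio (observed over expected from base composition) above 0.6, 15.2% had a peak within 1000 bp, against 3.34% of 8405 other starts. The 45 starts of the listed genes were split in much the same way as all starts, with 57.8% above 0.6 against 62.1%, and 4 of the 45 (8.89%) had a peak within 1000 bp, against 10.7% of all. Those of MYB (ratio 0.928), ETV6 (0.93) and the first BCL11A start (0.805) were CpG-rich. The start of IKZF2 nearest its peak had a ratio of 0.384, and was the 1 of 19 CpG-poor starts of the listed genes with a peak that near. Of the 26 CpG-rich starts of the listed genes, 3 had a peak within 1000 bp, against 15.2% of all CpG-rich starts, so most had none in either set. Those without included starts of CEBPA (1.05), RUNX1 (1.04), KLF2 (1.00) and KLF4 (0.934).

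The deposited distance, measured from the peak's lower coordinate, can misstate how near a peak lies to a gene on either strand. It is 487 bp for IKZF2 (minus strand), whose nearer peak edge is 115 bp from the start. For ETV6 (plus strand) it is 972 bp, with the nearer edge at 695 bp, while for BCL11A (minus strand) it equals the nearer edge, at 1337 bp. By nearest edge 60.7% of all annotated peaks lay within 1000 bp of a start, against 55.7% by the deposited distance, and the count for the listed genes was 3 of 6 by both.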
